A study of Mustela putorius furo and Mus musculus with 4 samples.

Results

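Chondroitin sulfate proteoglycans (CSPGs) and their partners were described in cultured astrocytes of ferret and mouse through 10 genes. These were the lecticans Acan, Bcan, Ncan and Vcan, the membrane CSPGs Cspg4 and Cspg5, tenascin-R (Tnr), the link proteins Hapln2 and Hapln4, and the sulfotransferase Chst11. The genes were chosen by symbol, all 10 were found once in each species, and 13373 symbols were shared between the species. The study compared 2 libraries of ferret astrocytes, from sable ferrets at postnatal day 1, with 2 libraries of mouse astrocytes, from ICR mice at postnatal days 1 to 3. Cortices were grown as mixed glia for 14 days in medium with 10% fetal bovine serum, shaken and replated, and serum was withdrawn before RNA was harvested, so that all libraries came from cells kept in serum-free medium with heparin-binding EGF-like growth factor. A mouse flask pooled the cortices of several pups, whereas the cells of a single ferret pup filled several flasks. The labels do not say whether the libraries of a species came from separate cultures, and p-values therefore measure only the spread between these libraries.

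CSPGs consist of a core protein that carries chondroitin sulfate chains. Lecticans bind hyaluronan at their N-terminal end, where link proteins of the Hapln family stabilize the bond, and bind tenascins and fibulins at their C-terminal end. The resulting lattice fills the space around neurons, is condensed in perineuronal nets and at nodes of Ranvier, and is increased in the glial scar, where CSPGs are known to restrain axon growth. Astrocytes and oligodendrocyte precursors are known sources of neurocan, brevican and versican. The position of sulfate on the chain, which sulfotransferases set, determines which proteins the chain can bind.

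Gene expression was given as FPKM, fragments scaled to exon length and to the mapped fragments of the library, and compared as log2(FPKM + 1) with limma. A gene was called when its Benjamini-Hochberg adjusted p was under 0.05 and its log2 difference, ferret minus mouse, was above 1 in either direction. The deposited values hold no read counts, so the depth is unknown here. Steps between low values gave only its ratio between duplicates, which was 1.17 for ferret replicate 1 against 2 and 0.834 for mouse replicate 1 against 2. Over the shared symbols, FPKM added up to 227391 and 236543 in ferret libraries and to 300465 and 308121 in mouse libraries, and the median log2 difference of all 10204 genes tested was -0.35. Species, gene models and culture cannot be told apart in this design. In bulk RNA, fewer cells of a type and less RNA per cell cannot be told apart either. Among all genes tested, 30.1% were called lower and 13.1% higher in ferret astrocytes, and the marker counts are to be read beside these shares. Of 12 astrocyte markers, 8 were called lower and 1 higher. All 9 microglia markers tested of 10 were called lower, with a summed FPKM of 6.44 to 7.98 in ferret and 521 to 537 in mouse libraries, as were all 9 fibroblast markers tested of 10, with a sum of 110.7 to 125 in ferret and 1700 to 1714 in mouse libraries. Many of these markers had a ferret mean under 1 FPKM and were tested only through mouse libraries, which set their direction. They were the microglia markers Aif1, Cx3cr1, P2ry12, Csf1r, Tyrobp, C1qb and Trem2 and the fibroblast markers Lum, Pcolce, Serpinf1 and Thbs2. The same held for Slc1a2 among the astrocyte markers. Markers of oligodendrocyte precursors summed to 49.8 and 55.9 FPKM in ferret and 15.9 and 16.6 in mouse libraries. Of 10 neuron markers, 8 had a symbol shared between the species and 3 were high enough to be tested, all called higher. Gad1 and Nefl were under 1 FPKM in both mouse libraries and were tested only through ferret libraries, which set their direction. Of the shared markers too low to be tested, Rbfox3 and Slc17a7 were higher in mouse libraries, Snap25 and Gad2 in ferret libraries, and Slc17a6 overlapped. The list summed to 12.3 and 13.7 FPKM in ferret and 2.21 and 2.43 in mouse libraries.

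Most of the CSPG genes were lower in ferret astrocytes. Of the 9 genes that passed the filter of a mean FPKM of at least 1 in either species, 6 were called lower, namely Bcan, Ncan, Vcan, Cspg5, Tnr and Chst11. Acan and Hapln4 were called higher, Cspg4 was not called, and Hapln2 was too low to be tested. Acan reached the filter only in ferret and Tnr only in mouse libraries, so passing it had already set their direction. Among all genes tested, 30.1% were called lower and 13.1% higher, and in 94.1% the libraries of the species did not overlap, so neither a call nor separated libraries set these genes apart. The median log2 difference of the 9 genes was -1.09. After each library was rescaled to the mean library sum, 4 were called lower and 2 higher, beside 21.7% and 19.1% of all genes, since Bcan and Ncan no longer passed the limit of 1.

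**Figure D1:**
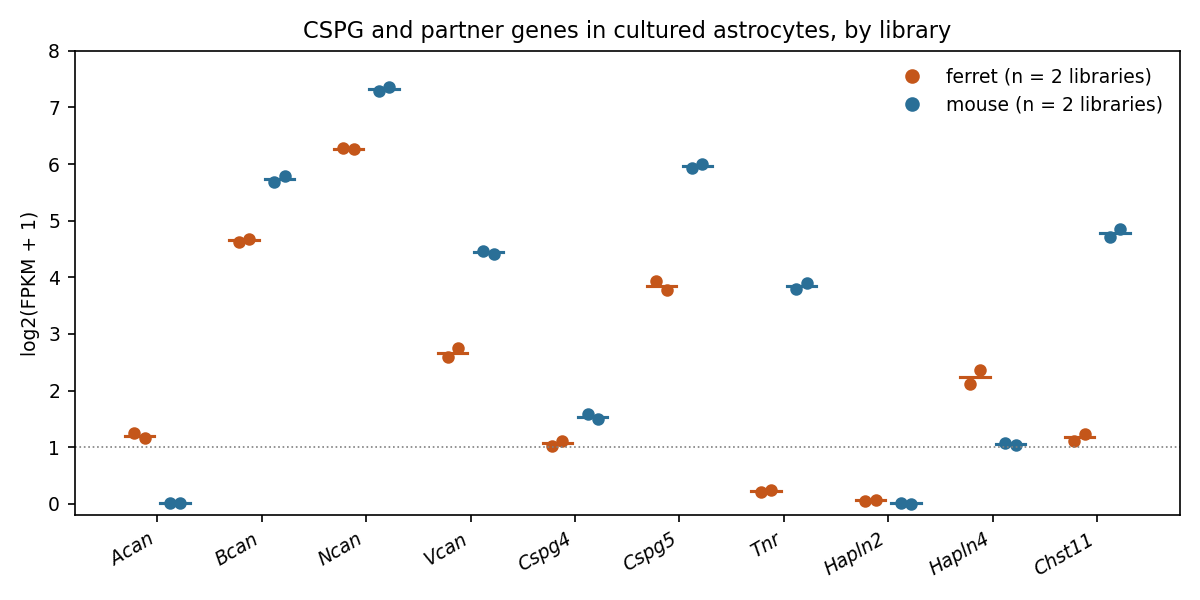
Each point is the log2(FPKM + 1) of a library, with 2 ferret (orange) and 2 mouse (blue) libraries for each of the 10 genes on the horizontal axis; short bars are species means and the dotted line marks an FPKM of 1. The ferret points lie above the mouse points for Acan, Hapln4 and, close to 0, Hapln2, and below them for the other 7 genes.

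Neurocan (Ncan), a secreted lectican of the developing brain, was the most abundant of the 10 genes in both species. Ferret libraries had 76.4 and 75.9 FPKM and mouse libraries 155 and 163. The libraries of the species did not overlap, and the mean was 2.09-fold higher in mouse astrocytes (log2 difference -1.05, SE 0.057, adjusted p = 5.58e-08 by limma). The mouse gene is annotated on the minus strand of chromosome 8 of the GRCm38 build, 70093085 to 70120873. Brevican (Bcan), the lectican of perisynaptic and perineuronal matrix, stood at 23.5 and 24.7 FPKM in ferret libraries against 50.6 and 54.1 in mouse libraries. Both ferret values were below both mouse values (log2 difference -1.09, SE 0.063, adjusted p = 9.10e-08 by limma). In the mouse, the gene is annotated on the minus strand of chromosome 3, 87987531 to 88000230. Neither call held under a scaling that set the library sums equal, where the log2 differences were -0.67 for Ncan and -0.71 for Bcan. By rank among the shared symbols, where 1 is the highest FPKM, Ncan stood at positions 508 and 540 in ferret and 251 and 243 in mouse libraries.

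Versican (Vcan), a large lectican of immature and fibroblast-rich matrix, was lower in ferret astrocytes by more than neurocan and brevican were. Ferret libraries had 5.05 and 5.71 FPKM and mouse libraries 21.1 and 20.4, without overlap (3.86-fold, log2 difference -1.77, SE 0.075, adjusted p = 8.93e-09 by limma). The mouse gene is annotated on the minus strand of chromosome 13, 89655312 to 89742509, and has 9 annotated transcripts over 14462 bp of exon, which the deposited values join into a single value. The fibroblast markers differed in the same direction between the species, and their part in the difference of Vcan was not tested.

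Aggrecan (Acan), the lectican of cartilage and of mature perineuronal nets, went the other way. Ferret libraries had 1.37 and 1.23 FPKM and mouse libraries 0.00825 and 0.00687. Both ferret libraries stood above both mouse libraries, at a level that ranked 8843 and 8957 among the shared symbols, and the mouse values were near the bottom of the scale. After multiplication of each value by the depth of its library, relative to the other, the mouse values stood in a ratio of 1.001, as for the same small number of fragments in both libraries. The log2 difference was 1.19 (SE 0.078, adjusted p = 2.26e-07 by limma), which understates a change at this level and was 3.70 with a pseudocount of 0.1. In the mouse, the gene is annotated on the plus strand of chromosome 7, 79053483 to 79115099, and the annotation has no gene overlapping it.

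Within the lecticans, Ncan led and Bcan followed in all 4 libraries, while the summed FPKM of the family was 106 and 107.5 in ferret and 227 and 238 in mouse libraries. These shares do not depend on the scaling between libraries, but rest on the gene models of each species. Brevican made up 22.1% and 23.0% of lectican FPKM in ferret libraries against 22.3% and 22.8% in mouse libraries, and these ranges overlapped. Neurocan made up 71.8% and 70.6% in ferret and 68.4% and 68.7% in mouse libraries. Versican made up 5.03% ± 0.401 (SD, n = 2) in ferret against 8.94% ± 0.496 (SD, n = 2) in mouse astrocytes, and aggrecan 1.21% ± 0.101 (SD, n = 2) and 0.00326% ± 0.000524 (SD, n = 2). With 2 libraries in each species, the smallest two-sided p of an exact permutation test is 0.333, and no test was run on these shares.

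**Figure D2:**
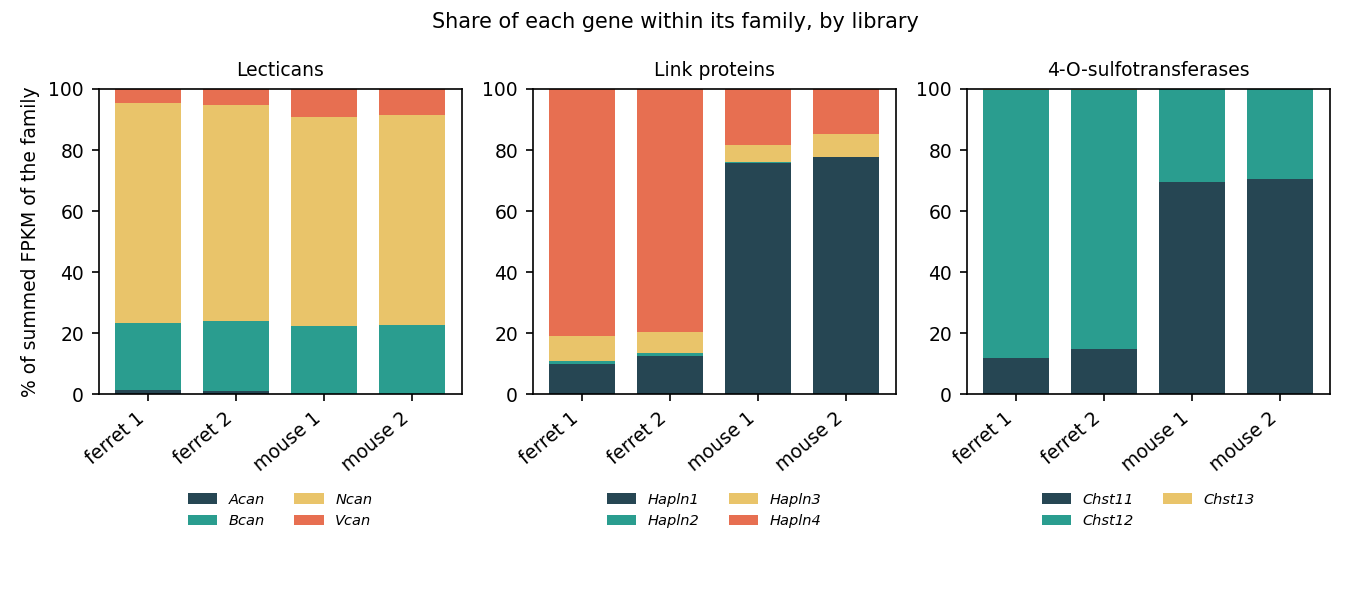
Stacked bars give the percent of the summed FPKM of a family that each gene contributed, in each of the 4 libraries, for the 4 lecticans, the 4 link proteins and the 3 chondroitin 4-O-sulfotransferases. Bcan takes 22.1% to 23.0% of every lectican bar, whereas Hapln4 and Chst12 fill most of the ferret bars and Hapln1 and Chst11 most of the mouse bars.

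Of the membrane CSPGs, neuroglycan C (Cspg5), a brain-specific transmembrane proteoglycan with an EGF-like domain, was called lower in ferret astrocytes. Ferret libraries had 14.3 and 12.6 FPKM and mouse libraries 59.7 and 63.2. The species did not overlap, and the mean was 4.56-fold higher in mouse astrocytes (log2 difference -2.11, SE 0.073, adjusted p = 2.29e-09 by limma). The mouse gene is annotated on the plus strand of chromosome 9, 110243783 to 110262576. Cspg5 stood in the second place among the 10 genes in mouse astrocytes and below Bcan, in the third, in ferret astrocytes, with no overlap of neighbouring ranges in either order.

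Cspg4 encodes NG2, the proteoglycan that marks oligodendrocyte precursors and pericytes. Ferret libraries had 1.04 and 1.16 FPKM and mouse libraries 2.00 and 1.81. The ferret values were the lower ones, but the log2 difference of -0.47 (SE 0.081, adjusted p = 3.51e-04 by limma) was under the limit of 1 and close to the median of all genes, and it was -0.05 after quantile normalization. In the mouse, the gene is annotated on the plus strand of chromosome 9, 56865033 to 56899870. Of the other markers of oligodendrocyte precursors, 6 of 8 were tested, and 3 were called higher and none lower, beside 13.1% and 30.1% of all genes. The 3 called higher were under 1 FPKM in both mouse libraries and were tested only through ferret libraries, which set their direction. Sox10, a transcription factor of the oligodendrocyte lineage, had 26.3 and 30.9 FPKM in ferret and 0.231 and 0.304 in mouse libraries, whereas Olig2, another, had 4.92 and 5.18 in ferret and 9.62 and 9.80 in mouse libraries (log2 difference -0.82, under the limit). Of 8 pericyte and mural markers 5 were tested, and 2 were called higher (Kcnj8 and Higd1b) and 2 lower (Pdgfrb and Acta2), beside 13.1% and 30.1% of all genes. Kcnj8 had 11.75 and 11.32 FPKM in ferret and 0.0139 and 0.0232 in mouse libraries. Higd1b had 1.77 and 1.45 FPKM in ferret and 0.098 and 0 in mouse libraries. Both were tested only through ferret libraries, which set their direction. The list summed to 44.0 and 40.4 FPKM in ferret and 252 and 267 in mouse libraries. Acta2 alone had 22.9 and 20.4 FPKM in ferret and 221 and 238 in mouse libraries, most of the mouse sum. Rgs5, a pericyte marker, was listed at 0 in both ferret libraries and at 0.601 and 0.576 FPKM in mouse libraries, too low to be tested. Their part in the level of Cspg4 was not tested.

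**Figure D3:**
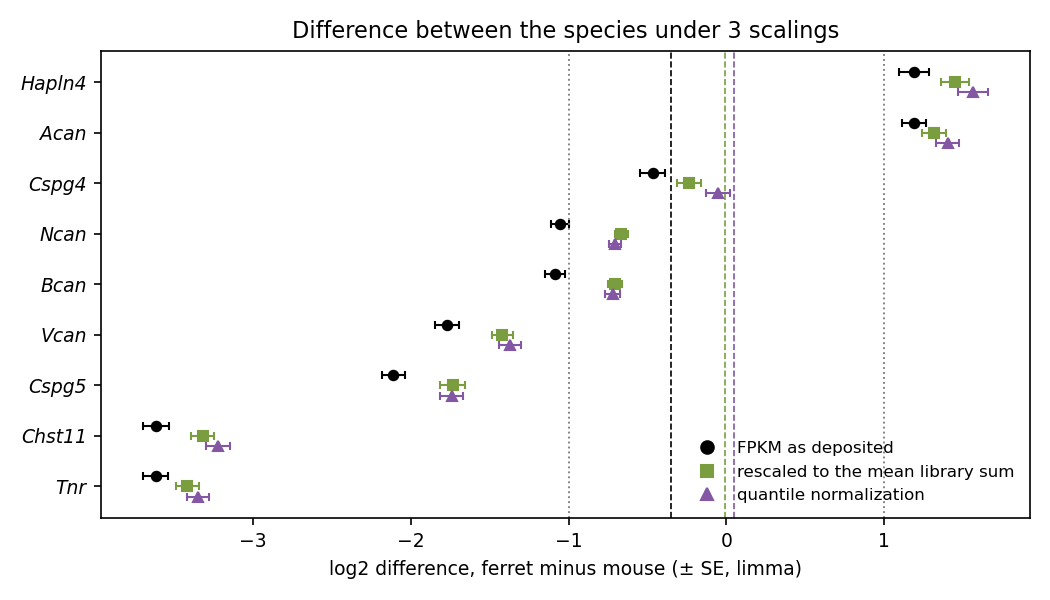
Points give the log2 difference, ferret minus mouse, of the 9 genes tested, with the SE from limma, for FPKM as deposited (circles), FPKM rescaled to the mean library sum (squares) and quantile-normalized values (triangles). Dashed lines mark the median of all genes under each scaling, and dotted lines the limit of 1; Bcan and Ncan cross that limit between scalings, and Tnr and Chst11 lie farthest from 0.

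Tenascin-R and Chst11 had the largest differences of the 10 genes, at positions 267 and 269 by absolute log2 difference among the 10204 genes. Tenascin-R is a trimeric glycoprotein, made mainly by oligodendrocytes and some neurons, that crosslinks lecticans. Ferret libraries had 0.154 and 0.190 FPKM and mouse libraries 12.9 and 13.9. The species were far apart, with both ferret values under 1 and a mean 77.7-fold higher in mouse astrocytes (log2 difference -3.61, SE 0.078, adjusted p = 1.23e-10 by limma). The log2 difference was -5.63 with a pseudocount of 0.1. The mouse gene is annotated on the plus strand of chromosome 1, 159523769 to 159931729, where 3 annotated genes, 1 of them on the minus strand, overlap it, and the sources used here do not say whether strand entered the FPKM. Tenascin-C (Tnc), the tenascin of immature astrocytes and glial scars, had 34.5 and 36.7 FPKM in ferret and 72.0 and 70.6 in mouse libraries (log2 difference -0.98, under the limit). Tenascin-R thus made up 0.480% ± 0.0498 (SD, n = 2) of the FPKM of both tenascins in ferret against 15.8% ± 0.883 (SD, n = 2) in mouse astrocytes. The genes nearest to Tnr by Euclidean distance over the 4 libraries on the log2 scale were Stra6 (0.148), Igf1 (0.151) and Hs3st1 (0.174).

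The most abundant link protein was Hapln4 in ferret and Hapln1 in mouse libraries. Hapln4, a link protein of brainstem and cerebellar perineuronal nets, stood at 3.33 and 4.14 FPKM in ferret libraries against 1.10 and 1.04 in mouse libraries. Both ferret libraries were higher (3.49-fold, log2 difference 1.19, SE 0.095, adjusted p = 1.02e-06 by limma). Hapln2, the link protein of nodes of Ranvier, had 0.0352 and 0.0495 FPKM in ferret and 0.0135 and 0 in mouse libraries. At these levels the gene was not tested, and it was the lowest of the 10 genes by mean FPKM in both species. Hapln1, which is not among the 10 genes and is the link protein of cartilage and of most perineuronal nets, had 0.412 and 0.649 FPKM in ferret and 4.54 and 5.51 in mouse libraries (log2 difference -1.98, SE 0.106, adjusted p = 5.16e-08 by limma). Hapln4 made up 81.0% and 79.5% of link protein FPKM in ferret libraries against 18.3% and 14.7% in mouse libraries. Hapln1 made up 10.0% and 12.5% in ferret and 75.7% and 77.7% in mouse libraries. The summed FPKM of the 4 link proteins was 4.66 ± 0.772 (SD, n = 2) in ferret against 6.55 ± 0.779 (SD, n = 2) in mouse astrocytes.

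Link protein genes lie near the lectican genes. In the mouse, no protein-coding gene lies between the genes of any of the 4 pairs. Bcan lies 21519 bp from Hapln2 (chromosome 3, 88021750 to 88027583, minus strand), Ncan 2222 bp from Hapln4 (chromosome 8, 70083457 to 70090862, plus strand), Vcan 43659 bp from Hapln1, and Acan 2 bp from Hapln3. In the ferret RefSeq table, of assembly ASM1176430v1.1, no protein-coding gene lies between Ncan and Hapln4 or between Acan and Hapln3, 1 lies between Bcan and Hapln2, and 7 between Vcan and Hapln1. Ncan was lower and Hapln4 higher in ferret astrocytes, and both kept their sign under all 3 scalings. Vcan and Hapln1 were both lower. Acan was higher, while Hapln3 overlapped between the species, at 0.332 and 0.366 FPKM in ferret and 0.345 and 0.543 in mouse libraries.

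Chst11 encodes chondroitin 4-O-sulfotransferase 1, which sulfates carbon 4 of N-acetylgalactosamine in chondroitin. Ferret libraries had 1.16 and 1.35 FPKM and mouse libraries 25.4 and 27.8. The species did not overlap, and the mean was 21.2-fold higher in mouse astrocytes (log2 difference -3.61, SE 0.081, adjusted p = 1.52e-10 by limma). In the mouse, the gene is annotated on the plus strand of chromosome 10, 82985498 to 83195900, where 3 annotated genes on the minus strand overlap it. Chst12, which encodes another chondroitin 4-O-sulfotransferase, had 8.67 and 7.86 FPKM in ferret and 11.1 and 11.6 in mouse libraries (log2 difference -0.41, under the limit). Chst11 therefore made up 11.7% and 14.6% of the FPKM of the 4-O-sulfotransferases Chst11, Chst12 and Chst13 in ferret libraries against 69.6% and 70.5% in mouse libraries.

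In ferret astrocytes, the order of the 10 genes by mean FPKM was Ncan, Bcan, Cspg5, Vcan, Hapln4, Acan, Chst11, Cspg4, Tnr and Hapln2, and the ranges of Acan and Chst11 and of Chst11 and Cspg4 overlapped. In mouse astrocytes it was Ncan, Cspg5, Bcan, Chst11, Vcan, Tnr, Cspg4, Hapln4, Acan and Hapln2, and the ranges of Acan and Hapln2 overlapped. The other neighbours were separated. FPKM is per length, but each species has its own gene models, and the lengths of the ferret models of these genes were not used here.

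The rest of the pathway was taken from 7 lists of 70 genes, of which 62 were shared between the species and 55 tested. Of these, 22 were called lower and 7 higher in ferret astrocytes, where 30.1% and 13.1% of all genes were. Among those called lower, Hapln1, Spock3, Fbln1, Csgalnact1, Chst7, Adamts9, Rtn4rl1 and Itga9 had a ferret mean under 1 FPKM. Among those called higher, Spock1, Rtn4r and Adamts4 had a mouse mean under 1 FPKM. Such genes passed the filter through the other species alone, so passing it had already set their direction. The median log2 difference of the 55 genes tested was -0.58, beside -0.35 for all genes. With FPKM rescaled to the mean library sum, 20 were lower and 12 higher (21.7% and 19.1% of all genes), and after quantile normalization 18 were lower and 12 higher (20.4% of all genes in either direction).

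Of 10 enzymes of chondroitin and dermatan sulfation tested, 4 were called lower and 2 higher, beside 30.1% and 13.1% of all genes. The count became 3 and 3 after rescaling to the mean library sum, beside 21.7% and 19.1% of all genes. Chst15, which adds a further sulfate to carbon 6 of 4-sulfated units, had 15.1 and 13.5 FPKM in ferret and 3.84 and 4.21 in mouse libraries (log2 difference 1.61, SE 0.080, adjusted p = 2.99e-08 by limma). Ust, which sulfates uronic acid in the chain, had 4.47 and 5.50 FPKM in ferret and 1.74 and 1.72 in mouse libraries. Dse, the epimerase that turns chondroitin into dermatan sulfate, had 1.09 and 1.04 FPKM in ferret and 8.56 and 10.3 in mouse libraries. Chst7, a chondroitin 6-O-sulfotransferase, had 0.114 and 0.134 FPKM in ferret and 4.13 and 4.31 in mouse libraries. The calls of these 4 genes held under each scaling. The other genes called lower were Chst14, a dermatan 4-O-sulfotransferase, at 2.96 and 3.94 FPKM in ferret and 10.6 and 10.4 in mouse libraries, and Dsel, a second epimerase, at 3.94 and 3.63 in ferret and 9.04 and 8.21 in mouse libraries.

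Of 8 enzymes and transporters for the linkage region, 2 were called lower and 1 higher, and of 5 chain-polymerizing enzymes 1 was called lower and none higher, beside 30.1% and 13.1% of all genes. Csgalnact1, which adds the first N-acetylgalactosamine of a chondroitin chain, had 0.394 and 0.472 FPKM in ferret and 7.60 and 7.53 in mouse libraries, and Csgalnact2, with the same activity, had 4.65 and 4.07 in ferret and 6.67 and 6.64 in mouse libraries (log2 difference -0.52, under the limit). Slc35b2, which carries the sulfate donor into the Golgi, had 3.43 and 3.58 FPKM in ferret and 33.4 and 32.3 in mouse libraries (log2 difference -2.91, SE 0.067, adjusted p = 1.72e-10 by limma). Xylt2, a xylosyltransferase that starts the linkage region, had 2.37 and 2.59 in ferret and 7.80 and 8.27 in mouse libraries, and its call was lost after quantile normalization. Pxylp1, which removes phosphate from the linkage xylose, was called higher, at 6.24 and 6.69 FPKM in ferret and 2.52 and 2.698 in mouse libraries.

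Of 6 proteases that cut lecticans, 3 were called lower and 2 higher, again beside 30.1% and 13.1% of all genes. With values rescaled to the mean library sum, 3 were called higher, beside 19.1% of all genes. Adamts5 had 2.58 and 2.60 FPKM in ferret and 20.3 and 19.8 in mouse libraries, and Adamts1 had 9.39 and 8.81 in ferret and 40.5 and 40.3 in mouse libraries. Adamts15 had 8.74 and 9.91 FPKM in ferret and 1.88 and 1.78 in mouse libraries, and Adamts4 had 3.97 and 4.38 in ferret and 0.974 and 1.00 in mouse libraries. All 4 were called. Adamts1 and Adamts5 together led the family in mouse astrocytes, with 58.2% ± 0.319 (SD, n = 2) and 28.9% ± 0.231 (SD, n = 2) of its FPKM. In ferret astrocytes, Adamts15 made up 31.6% ± 2.49 (SD, n = 2) and Adamts1 30.8% ± 1.69 (SD, n = 2).

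**Figure D4:**
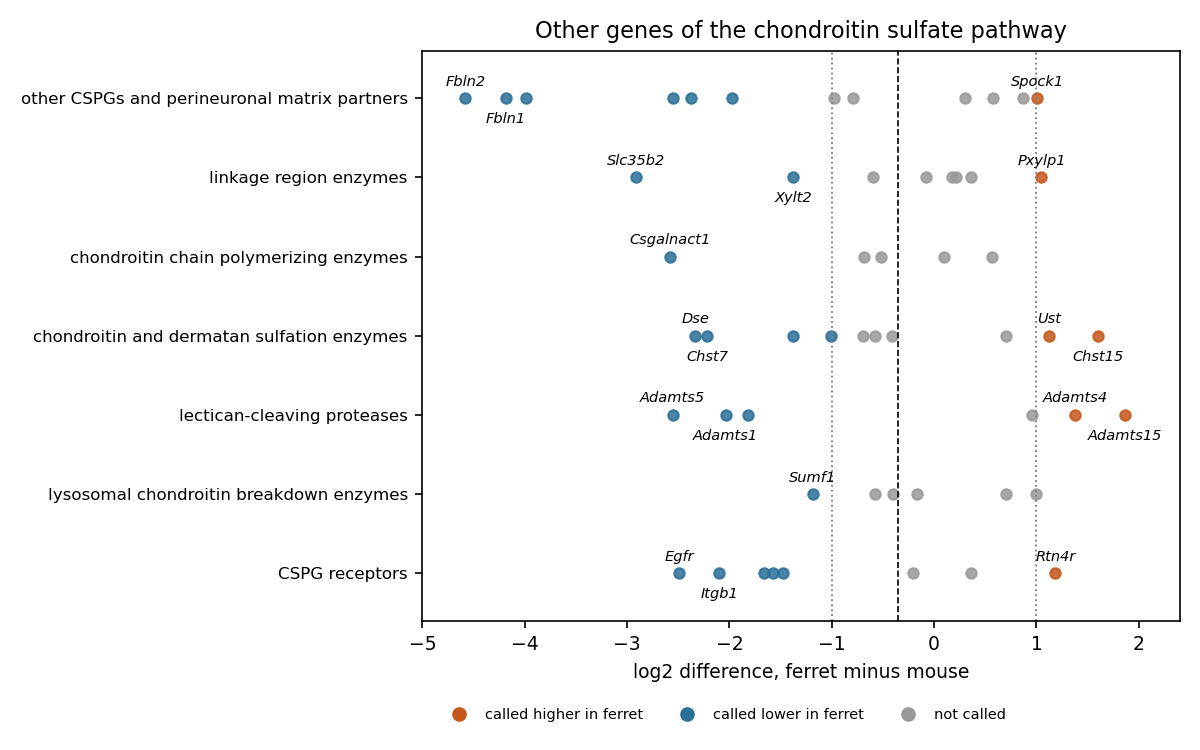
Each point is the log2 difference, ferret minus mouse, of a gene of 7 pathway lists (rows), coloured by its call with FPKM as deposited, with up to 4 called genes named per list. The dashed line marks the median of all genes, -0.35, and dotted lines the limit of 1; 22 genes lie beyond it on the lower side and 7 on the higher side.

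Of 6 lysosomal enzymes of chondroitin breakdown tested, 1 was called lower and none higher, beside 30.1% and 13.1% of all genes. The gene called lower, Sumf1, which activates sulfatases, had 16.1 and 15.8 FPKM in ferret and 37.3 and 37.7 in mouse libraries. Under each scaling that set the libraries alike, its call was lost and 2 other genes of the list were called higher. Of all genes, 19.1% were called higher after rescaling to the mean library sum and 20.4% after quantile normalization. Of 8 genes for receptors linked to CSPGs or tenascins, 5 were called lower and 1 higher, again beside 30.1% and 13.1% of all genes. Ptprs, the main receptor phosphatase for chondroitin sulfate, had 43.8 and 47.3 FPKM in ferret and 52.1 and 53.3 in mouse libraries (log2 difference -0.21, under the limit). Rtn4r, the Nogo receptor, was called higher, at 1.83 and 1.99 FPKM in ferret and 0.329 and 0.234 in mouse libraries. Egfr, at 2.97 and 2.50 in ferret and 19.6 and 20.3 in mouse libraries, and the integrin subunit Itgb1, at 157 and 144 and at 647 and 648, were called lower. The other receptor genes called lower were Ptprf (log2 difference -1.66), Itga9 (-1.58) and Rtn4rl1 (-1.47).

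Of 12 further CSPGs and matrix partners tested, 6 were called lower and 1 higher, beside 30.1% and 13.1% of all genes. The lectican ligands fibulin-1 and fibulin-2 differed most. Fbln2 had 2.55 and 2.51 FPKM in ferret and 85.4 and 81.7 in mouse libraries (log2 difference -4.58, SE 0.063, adjusted p = 1.23e-11 by limma). Fbln1 had 0.0730 and 0.0527 in ferret and 18.2 and 18.5 in mouse libraries. Both fibulins are also made by fibroblasts, whose markers were lower in ferret libraries, and the part of such cells was not tested.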

How the data were processed

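RNA-seq libraries of cultured astrocytes were analysed, 2 from ferret and 2 from mouse. According to the methods and labels, the authors aligned reads with STAR 2.7.0f (Ensembl ferret and GRCm38 mouse genomes) and deposited FPKM per gene from Cufflinks 2.2.1, scaled to exon length and mapped fragments. The deposited files hold no counts, and the read counts that the study lists elsewhere were held only in part and not used here. Symbols were matched in upper case. For a symbol with several rows, the row with the highest species mean was used. The comparison used limma 3.58.1 (R 4.3.3) with a trended empirical Bayes prior, on log2(FPKM + 1), and left out genes whose mean was under 1 FPKM in both species. The fit was tested on simulated data. Tables and figures were made with Python 3.11.15.

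The 10 genes and the lists were chosen with earlier results of these data known. Up to 2 called genes in each direction per pathway list were named by rule. Hapln1, Hapln3, Tnc, Chst12, Csgalnact2, Ptprs, Ptprf, Rtn4rl1, Itga9, Ptprz1, Chst14, Dsel, Sox10, Olig2, Rgs5, Kcnj8, Higd1b, Pdgfrb, Acta2 and the testicans Spock2 and Spock3 were named after their values were seen. So were the neuron markers Gad1, Nefl, Rbfox3, Slc17a7, Snap25, Gad2 and Slc17a6. The same holds for Adamts9, Slc1a2 and the fibroblast markers Lum, Pcolce, Serpinf1 and Thbs2. It also holds for the microglia markers Aif1, Cx3cr1, P2ry12, Csf1r, Tyrobp, C1qb and Trem2. The result for 1 of the 7 cell type marker lists is not reported here. Mouse coordinates are from GENCODE M21 on GRCm38, a release other than the authors'. Alternatives were a pseudocount of 0.1, no filter, 3 scalings, the replicate number as a block, summed rows, a prior without trend and each library left out in turn.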

Additional observations from a re-analysis of the deposited data

How the results depend on the processing

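Acan, Vcan, Cspg5, Tnr, Hapln4, Chst11 and Cspg4 kept their direction and their side of the limit under every alternative tried. The calls of Bcan and Ncan were lost under each scaling between libraries, with log2 differences of -0.72 and -0.67 after rescaling to a sum of 1000000, -0.71 and -0.67 after rescaling to the mean library sum, and -0.72 and -0.71 after quantile normalization. These scalings moved the median of all genes from -0.35 to -0.01 or 0.05. Of the other pathway genes, the 7 called higher became 11 with a pseudocount of 0.1, 13 and 12 after the 2 rescalings and 12 after quantile normalization. Over all 10204 genes tested, those called higher also rose, from 1336 to 1579, 2197, 1954 and 2080 in the same order of settings. With each library left out in turn, where the lone library of a species is assumed to vary like the others, 6 CSPG genes stayed lower and 2 higher, and only Spock1 among the pathway genes named by rule lost its call, at 0.99 without ferret replicate 2 and 0.97 without mouse replicate 1.

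The replicate numbers come from the labels alone and the species do not share animals. The differences between duplicates of the species correlated at 0.00995 over 10204 genes, so no shared effect of the replicate number was seen. With a single such difference per species, this cannot tell whether libraries of the same number were prepared together. With the replicate number as a block, the log2 difference of Chst11 was -3.61, and 6 CSPG genes were called lower and 2 higher, as without it. Hapln2 was tested only without the filter on low values. Values as low as those of Hapln2 in both species and of Acan in the mouse carry no interval, since the files analysed hold no counts.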

Other observations

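Testicans, small secreted proteoglycans of the Spock family that can carry chondroitin sulfate, did not share a direction. Spock3 had 0.0615 and 0.0577 FPKM in ferret and 4.43 and 4.60 in mouse libraries (log2 difference -2.38, SE 0.076, adjusted p = 1.32e-09 by limma). Spock1 had 2.42 and 2.50 FPKM in ferret and 0.681 and 0.766 in mouse libraries, with a log2 difference of 1.01 that just passed the limit of 1. Spock2 had 1.17 and 1.22 FPKM in ferret and 0.548 and 0.405 in mouse libraries, and its log2 difference of 0.58 did not reach the limit. Spock3 reached the filter only in mouse libraries, and Spock1 and Spock2 only in ferret libraries. Passing it had therefore already set the direction of all these testicans. The receptor-type CSPG Ptprz1, which is abundant in glial progenitors, had 81.7 and 75.5 FPKM in ferret and 62.7 and 64.6 in mouse libraries. Its log2 difference of 0.30 (SE 0.062, adjusted p = 0.00117 by limma) was under the limit.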
